A study of Mus musculus with 7 samples.

Results

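Cells sorted from blood as negative for E-cadherin (Ecad), the adhesion protein of epithelial cells, were split by how much of their RNA came from S100a8 and S100a9. The wells came from the second experiment of a single-cell study of PyMT mice, a mouse model of breast cancer driven by the polyoma middle T antigen, in which circulating tumour cells and solid tumour cells were compared. Wells with at least 500 transcripts other than spike-ins were used, and the groups were chosen by measured values: a well was high if S100a8 and S100a9 together made up at least 5% of its transcripts, and low otherwise. Of 96 wells sorted, 60 were used, 35 of them high and 25 low, out of 220 used wells of all populations in this experiment and 381 in the whole series. Both groups carried the same label, BEn (circulating tumour cell, Ecad-negative), and came from the same 4 libraries of PyMT mice with no other treatment named. The strain and age of the mice, their number per library and the promoter behind the transgene are not given in the sources used here. Each well was meant to hold 1 sorted cell, and libraries serve as replicates (n = 4). The labels do not tie the libraries to separate animals, so each p-value reflects how far these 4 libraries vary, possibly for technical reasons alone.

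S100a8 and S100a9 encode small calcium-binding proteins that pair to form calprotectin. Neutrophils, short-lived phagocytes that store antimicrobial proteins in granules, hold large amounts of it, and classical monocytes, which enter tissue through the chemokine receptor Ccr2 and carry the surface antigen Ly6c2, also make it. Mature neutrophils are known for little RNA per cell and for few ribosomal transcripts, while monocytes keep an active translation machinery.

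In mm10, S100a8 lies on chromosome 3 at 90668978 to 90670035 on the plus strand and S100a9 at 90692632 to 90695721 on the minus strand. Both sit in a cluster with S100a4 (90603771 to 90606045) and S100a6 (90612882 to 90624181). Further off on the same chromosome lie S100a11 (93520488 to 93526287) and S100a10 (93555080 to 93564643). Retnlg is on chromosome 16 at 48872621 to 48874496, Ccr2 on chromosome 9 at 124101950 to 124113557 and Ly6c2 on chromosome 15 at 75108158 to 75111970, all by the GENCODE annotation. The 250 bases before the RefSeq start (GRCm38.p6) are shown for S100a9, which chose the wells, for Retnlg, which had the highest fold change among the other genes, and for S100a4, its cluster neighbour that went the opposite way. Capitals mark matches on either strand to TATAAA (the TATA box), to TTNNGNAA (the core that C/EBP factors bind) and to GGAAGT (bound by PU.1).
S100a9: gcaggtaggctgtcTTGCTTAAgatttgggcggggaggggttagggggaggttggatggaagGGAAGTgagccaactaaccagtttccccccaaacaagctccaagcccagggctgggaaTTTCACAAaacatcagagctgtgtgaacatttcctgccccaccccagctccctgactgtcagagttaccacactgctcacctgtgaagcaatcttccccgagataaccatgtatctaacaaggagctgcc
Retnlg: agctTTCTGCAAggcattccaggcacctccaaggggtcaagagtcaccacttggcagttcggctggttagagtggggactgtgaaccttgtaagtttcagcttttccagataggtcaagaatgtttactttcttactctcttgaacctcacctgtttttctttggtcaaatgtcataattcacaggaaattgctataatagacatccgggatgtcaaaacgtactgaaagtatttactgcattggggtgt
S100a4: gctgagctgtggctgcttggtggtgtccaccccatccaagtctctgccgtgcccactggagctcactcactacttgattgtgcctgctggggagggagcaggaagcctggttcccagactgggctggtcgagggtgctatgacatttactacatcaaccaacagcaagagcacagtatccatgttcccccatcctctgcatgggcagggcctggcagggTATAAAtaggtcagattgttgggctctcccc
The S100a9 window, chr3:90695722-90695971 on the minus strand, held 2 matches to TTNNGNAA and 1 to GGAAGT. The Retnlg window, chr16:48872358-48872607 on the plus strand, held 1 match to TTNNGNAA, and the S100a4 window, chr3:90603520-90603769 on the plus strand, held 1 match to TATAAA, starting 31 bases before the gene start. Of 32851 RefSeq windows of the same length, 36.9% held TTNNGNAA, 19.7% GGAAGT and 12.4% TATAAA. These matches describe letters and say nothing about binding in these cells.

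The share of S100a8 and S100a9 chose the groups and is given as a description. It ran from 5.85% to 26.2% in high wells, with a median of 14.5%, and from 0.0902% to 4.38% in low wells, with a median of 0.416%. Few wells lay in between: 19 wells were under 1%, 6 from 1% to 5%, 10 from 5% to 10%, 10 from 10% to 15%, 5 from 15% to 20% and 10 at 20% or more. Just inside and outside the threshold were wells at 5.85%, 6.24% and 7.13%, and at 4.38%, 3.79% and 3.38%. S100a8 held 13.3 to 241 transcripts per high well (median 53.2) and 0 to 65.8 per low well (median 3.02). S100a9 held 21.9 to 343 (median 60.6) and 1 to 28.5 (median 4.03). Both genes rose and fell together from well to well, with Spearman rho of 0.91, 0.92, 0.87 and 0.97 in libraries 1 to 4 over 18, 18, 11 and 13 wells, which share library and depth. Within the high wells alone rho was 0.73, 0.65, 0.70 and 0.93. Among tumour wells the share stayed at or under 0.774% in the 71 Ecad-positive and 0.813% in the 69 Ecad-negative wells.

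**Figure D1:**
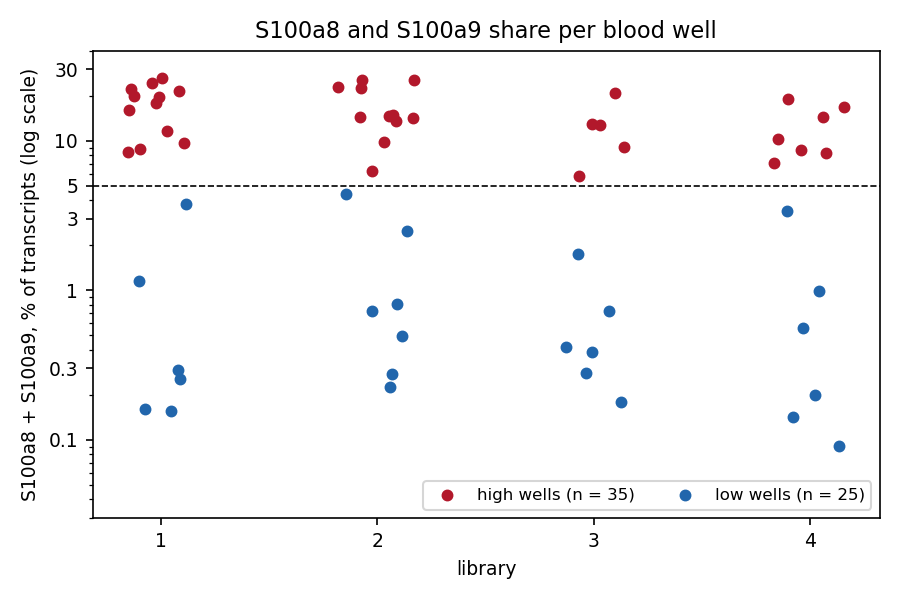
Share of S100a8 and S100a9 transcripts (percent of all non-spike-in transcripts, log axis) in each of the 60 wells, by library. Points are wells and the dashed line is the 5% threshold. Each library holds wells on both sides, with 12, 11, 5 and 7 high wells and 6, 7, 6 and 6 low wells in libraries 1 to 4.

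High wells were shallower than low wells in each of the 4 libraries. Median transcripts per well were 710 in high and 1342 in low wells, and median genes detected 438 and 765. The log2 ratio of the library medians averaged −0.96 ± 0.40 (SD, n = 4), with an exact permutation p of 0.12, two-sided, the smallest that 4 libraries allow. Summed transcripts came to 11468, 13650, 3362 and 4610 in high wells and 13089, 11730, 8515 and 6561 in low wells of libraries 1 to 4. Whether less RNA per cell or poorer capture lay behind this was not tested, since the spike-ins were left out and not compared between groups. Levels below are therefore relative to the other transcripts of the same wells, leaving S100a8 and S100a9 out of every total. Sums of the same group differed between libraries by 1.19 to 1.65 times sampling noise (chi-square per degree of freedom) in high and 1.71 to 3.18 in low wells. The libraries reuse well barcodes (24 in all, 22 in more than 1 library and 5 in all 4).

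The label of myeloid cells held for most wells. Markers of other blood cells were rare in both groups: T and NK cell genes summed to 10 transcripts in high and 14 in low wells (4 and 7 of 11 measured genes present, Cd3e, Cd4, Nkg7 and Gzmb at 0 in both), B cell genes to 6 and 0, platelet genes to 3 and 1, and erythroid genes to 0 and 4. Their share of transcripts lay between 0% and 0.0846% in every high library and between 0% and 0.0862% in every low one. In 3 low wells the label was not borne out, since classical monocyte genes were at 0.246%, 0.446% and 0.500% (next lowest low well 1.13%) and neutrophil genes under 1%. Of these, the wells of library 2 held 4 transcripts each of the T cell surface gene Thy1 and some of Cd3d, Cd3g, Cd8b1, Il7r or Klrd1. The third, in library 3, held 1.5% proliferation transcripts and 0.118% of pan-leukocyte transcripts. These 3 wells were picked after the data were seen, by their low share of monocyte genes. Values without them stand beside the main counts and the neutrophil, granule, monocyte and ribosomal results.

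The first comparison asked which other genes separate high from low wells, and whether they belong to neutrophil or monocyte programs. High wells carried genes of circulating neutrophils, among them Retnlg, Mmp9, Lrg1, Il1b and Lcn2, and low wells carried more lysozyme, Plac8, S100a4 and ribosomal transcripts. Transcripts were summed per library and group and fitted with edgeR (quasi-likelihood test, library as a block), and a gene counts as called at an adjusted p (Benjamini-Hochberg) below 0.05. Of 160 genes abundant enough to test, 102 (63.8%) were called, 53 higher (33.1%) and 49 lower (30.6%) in high wells, with a median log2 fold change of 0.02. When libraries were scaled by their totals only, the median moved to −0.42 and the split to 40 higher and 74 lower, and with means of wells in limma the median moved to −0.81 and the split to 28 and 72. Fold changes are thus relative to the other tested genes, and those near 0 carry no direction. Without the 3 wells above, 76 of 134 genes were called, 39 higher and 37 lower. Without the 6 wells of 1% to 5%, 104 of 152 were called, 54 and 50.

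Retnlg, a resistin-like gene made by neutrophils, had 204, 218, 182 and 158 transcripts per 10000 in the high wells of libraries 1 to 4 and 2.32, 8.64, 3.55 and 6.19 in the low wells. The groups did not overlap, and the log2 fold change of Retnlg was 5.67 (SE 0.37, edgeR adjusted p = 1.72e-07). Il1b, the gene of the inflammatory cytokine interleukin-1 beta, stood at 53.2, 29, 54.7 and 69.8 per 10000 in high and 3.09, 6.05, 11.9 and 7.73 in low wells (log2 fold change 3.25, SE 0.32, adjusted p = 4.97e-06). Every high library was above every low one for this gene too. Lack of overlap between the libraries of the groups was common. Of the 160 tested genes, 32 lay higher and 48 lower in high wells without overlap. For a single gene, here and below, it is thus a description and does not set the gene apart. All 9 tested genes of the mature neutrophil list, out of 35 measured, rose in high wells, against 33.1% of all tested genes, with a median log2 fold change of 3.02 against 0.02 for all tested genes. A gene abundant in high wells alone can pass the filter on low counts through them, so the count describes these 9 genes and lends no support to the list as a whole. Besides Retnlg and Il1b these were Lrg1 (4.04), a glycoprotein of neutrophil granules, Dusp1 (3.57), a phosphatase that switches off MAP kinases, Srgn (3.02), the core protein of granule proteoglycans, Grina (2.98), Slpi (2.95), which blocks neutrophil elastase, Selplg (2.33), the ligand of P-selectin, and Msrb1 (1.74), a methionine sulfoxide reductase. All 9 rose in 4 of 4 libraries, and all 9 were called without the 3 low wells and without the 6 intermediate wells. The list took 6.21%, 6.21%, 5.97% and 6.08% of transcripts in high wells and 0.620%, 1.15%, 0.605% and 0.881% in low wells. The mean difference was 5.30 percentage points, and 5.07 with every well thinned to 427 transcripts.

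Most other members were too scarce for that test, so they are given as summed transcripts, with the ratio per transcript and its 95% counting interval. A second edgeR fit, of genes with at least 10 transcripts in all, was chosen after the data were seen; it tested 1185 genes and called 189 (15.9%), 72 higher (6.08%) and 117 lower (9.87%). In it 18 of 24 mature neutrophil genes rose and 0 fell. A gene found in high wells alone can pass this filter too. The count therefore describes these genes and lends no support to the list as a whole. The chemokine receptor Cxcr2, which draws neutrophils out of the marrow, had 29 transcripts in high and 3 in low wells (ratio 13.7, 4.24 to 70.1, adjusted p = 0.000544). Hdc, which makes histamine, had 38 and 2 (ratio 26.9, 6.95 to 230, adjusted p = 7.25e-06). The formyl peptide receptor Fpr1, a sensor of bacterial peptides, had 18 and 0, at least 8.49-fold higher in high wells against a floor of 3 transcripts over the group (adjusted p = 0.000682). Its relative Fpr2 had 36 and 5 (ratio 10.2, 3.98 to 33.3). Mxd1 (34 and 7), Slfn4 (38 and 13), Asprv1 (18 and 1) and the cystatin-like genes Stfa2l1 (43 and 13) and BC100530 (14 and 1), near-identical copies whose reads may be split, were also called higher. Fgl2 (35 and 19), Slfn1 (26 and 9), Sorl1 (17 and 8), Trem3 (8 and 2), Clec4e (10 and 7) and Ier3 (7 and 7) were not.

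**Figure D2:**
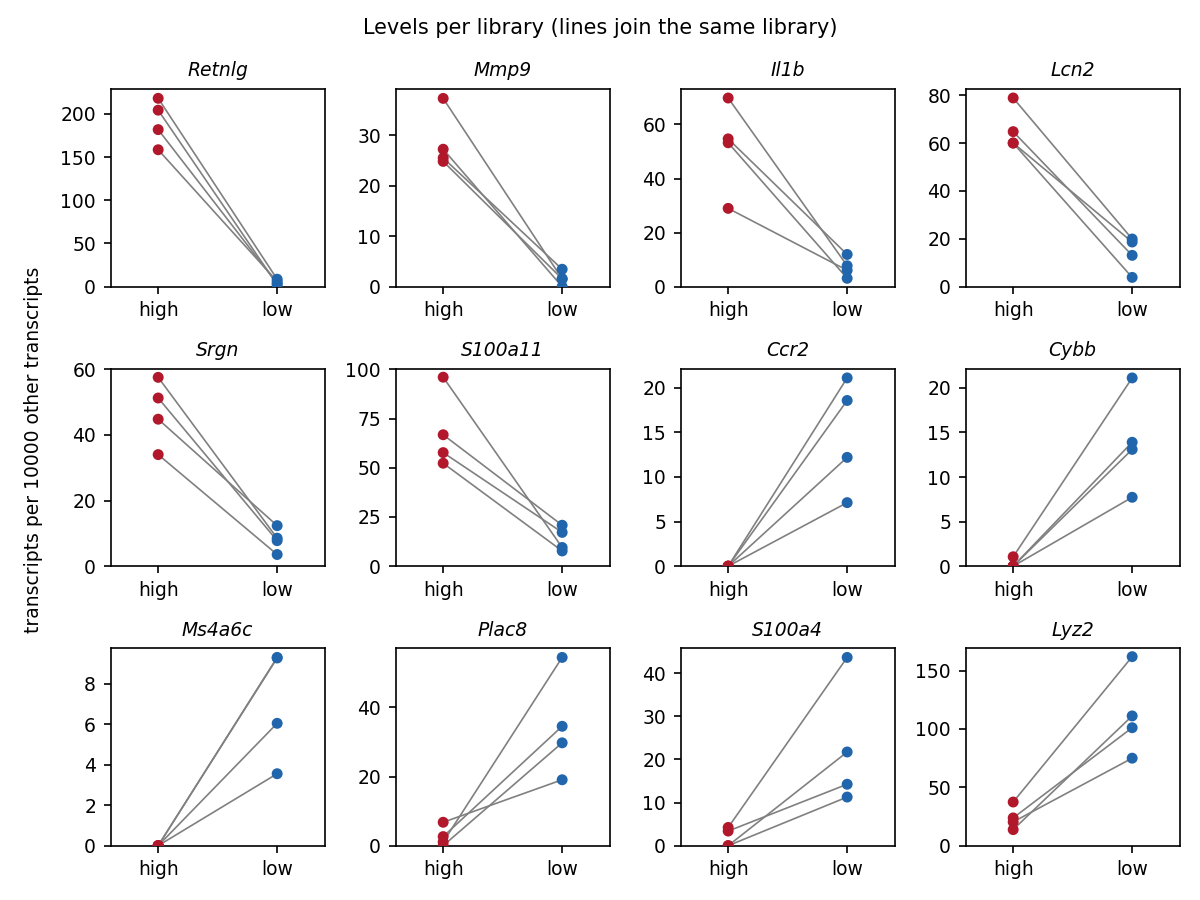
Transcripts per 10000 other transcripts of 12 genes in high (red) and low (blue) wells, 1 point per library, with lines joining the same library. The first 6 genes are higher in the high wells of every library, and Ccr2, Cybb, Ms4a6c, Plac8, S100a4 and Lyz2 are lower in every library.

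Granule genes did not move as 1 group. Of 6 tested members of the neutrophil granule list (19 measured), 4 rose and 2 fell, against 33.1% and 30.6% of all tested genes, with a median log2 fold change of 1.99. Those that rose were 1100001G20Rik, now named Wfdc21 (4.42, SE 0.36), Mmp9, the gelatinase of tertiary granules (4.35, SE 0.49), Lcn2, which binds bacterial iron carriers (2.80, SE 0.32), and Hp, haptoglobin (1.19, SE 0.44, adjusted p = 0.0323). Mmp9 stood at 37.3, 25.5, 27.2 and 24.8 per 10000 in high and 1.55, 3.45, 0 and 1.54 in low wells, without overlap, while Hp overlapped and lost its call with 7 alternatives. The 2 that fell were the lysozymes Lyz1 (−2.0, SE 0.31, adjusted p = 0.000157) and Lyz2 (−1.90, SE 0.29, adjusted p = 0.000134), near-identical copies that monocytes also express. Lyz2 had 13.8, 23.8, 20.4 and 37.4 per 10000 in high and 111, 101, 75.0 and 162 in low wells. Lyz1 had 40.5, 55.2, 34 and 44.9 in high against 314, 233, 129 and 252 in low wells. Both lay lower in every library without overlap. In all, the granule list took 2.93% ± 0.484 of transcripts in high and 4.23% ± 1.20 in low wells (SD, n = 4), lower in 4 of 4 libraries. The difference of −1.30 percentage points became −2.09 without the 3 low wells, −0.684 with an 8% threshold and −0.837 with each library's median as the threshold. Without Lyz1 and Lyz2 it turned round: the other granule genes took 2.37%, 2.70%, 1.77% and 2.19% in high and 0.904%, 1.002%, 0.463% and 0.759% in low wells, higher in 4 of 4 libraries without overlap (1.48 percentage points, an alternative chosen after the data were seen).

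Among granule genes too scarce for the main test, the early-stage gene Ngp had 46 transcripts in high and 0 in low wells (at least 21.7-fold higher), but in 5 of 35 high wells. Mmp8, the neutrophil collagenase, had 43 and 12 (ratio 5.07, 2.63 to 10.6), and Pglyrp1, which binds bacterial cell walls, 42 and 10 (ratio 5.94, 2.93 to 13.3). Both were called higher in the second fit (adjusted p = 0.00599 and 0.00184). A pair of members went the opposite way, Chi3l3 (also named Chil3) with 1 transcript in high and 67 in low wells, a ratio of 47.4 (8.22 to 1898) in favour of low wells, and Cybb, the catalytic subunit of the phagocyte oxidase, with 1 and 59, a ratio of 41.7 (7.2 to 1675). Ltf (13 and 6), Ifitm6 (28 and 17) and Cyba (25 and 39) were not called.

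No Ccr2 transcript was found in high wells. It had 0 transcripts in the 35 high wells of all 4 libraries, against 21.1, 12.2, 7.13 and 18.6 per 10000 in the low wells (59 transcripts), at least 13.9-fold lower in high wells (second fit, adjusted p = 5.39e-09). It was found in 16 of 25 low wells, and in 44% of low and 0% of high wells after thinning to 427 transcripts, where 0 of 35 allows up to 10% (exact Clopper-Pearson interval) of wells with a transcript at this depth, which sets no limit on cells that express the gene. In 71 Ecad-positive tumour wells, which should lack it, it was found in 0. Ly6c2 was less clear-cut, at 9.53, 5.29, 6.79 and 7.43 per 10000 in high and 37.4, 7.81, 4.75 and 9.27 in low wells. Its 20 and 68 transcripts gave a ratio of 2.40 (1.44 to 4.18) in favour of low wells, not called in the second fit (adjusted p = 0.0844), with library 1 far above the others among the low wells. Reads of its near-identical copy Ly6c1 may be mixed in.

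Of the classical monocyte list, 7 of 31 measured genes were tested in the main fit, of which 2 fell and 0 rose, against 30.6% of all tested genes lower, with a median of −0.38. The 2 of 7 stand near that share, in which 35 of the 49 lower calls were of ribosomal protein genes. Plac8 had 1.06, 2.63, 6.77 and 0 per 10000 in high and 54.5, 34.6, 19.1 and 29.8 in low wells (log2 fold change −3.61, SE 0.53, adjusted p = 0.000115). S100a4, a motility-linked S100 protein, had 4.23, 0, 3.39 and 0 in high and 43.7, 11.3, 14.3 and 21.7 in low wells (−3.31, SE 0.59, adjusted p = 0.000476). Both groups were clear of each other for both genes, and without the 3 low wells the log2 fold changes were −3.86 and −3.45. Mpeg1 (−0.85), Ifitm3 (−0.38), Gpx1 (0.06), Emb (0.28) and Cebpb (0.92) were not called there, though Mpeg1, a pore-forming protein of phagocytes, fell in the second fit (−1.46, adjusted p = 0.03). In the second fit 13 of 24 list genes fell and 1 rose, against 9.87% and 6.08% of all genes. A gene found in low wells alone can pass the filter of that fit. The count therefore describes these genes and lends no support to the list as a whole. Ms4a6c (0 and 28 transcripts, at least 6.60-fold lower) and Ms4a4c (0 and 14, at least 3.30-fold lower) were listed at 0 in all high wells. Ms4a6d had 1 and 15 and missed the threshold (adjusted p = 0.0529). Crip1 (9 and 53), Cst3, a cysteine protease inhibitor (19 and 64), Ahnak (5 and 27), the chemokine gene Ccl9 (4 and 30) and Clec4a1 (1 and 19) fell. Csf1r, the receptor on which monocytes depend, had 8 and 32 (ratio 2.83, 1.28 to 7.10, adjusted p = 0.0510). The member that rose was Cd14, the co-receptor for bacterial lipopolysaccharide, with 29 and 5 (ratio 8.20, 3.14 to 27.1, adjusted p = 0.00187). Tgfbi (28 and 32), Thbs1 (12 and 6), Smpdl3a (13 and 34) and Cd68 (3 and 8) were not called. The list took 1.69%, 1.11%, 1.43% and 1.49% of transcripts in high and 4%, 2.61%, 1.94% and 3.59% in low wells. The mean difference was −1.60 percentage points, and −2.07 without the 3 low wells. Without them 3 of 7 tested genes fell, against 37 of 134 of all tested genes, Ifitm3 being the added call (−0.67, edgeR adjusted p = 0.04999). These wells were picked for the lowest share of this very list. A larger list difference without them follows from that choice, and the values of member genes without them lend no support either. None of the 59 Ccr2 transcripts came from those 3 wells.

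Genes of non-classical monocytes, which patrol vessel walls, were scarce. None of 11 measured was tested in the main fit by edgeR, and 0 of 6 were called in the second (2 of 6 had an unadjusted p under 0.05). Their receptor Cx3cr1 had 1 and 14 transcripts (ratio 9.90 in favour of low wells, 1.51 to 419, adjusted p = 0.0926), Ear2 had 1 and 12, Apoc2 2 and 13, Nr4a1 3 and 10, Lst1 16 and 27 and Cd300a 7 and 10. The antigen-presentation genes of MHC class II and dendritic cells came to 8 transcripts in high and 45 in low wells, with H2-Aa at 7 and 13, and a pair of low wells in libraries 3 and 1 held 18.1 and 12.1 of the 45. The macrophage genes Apoe (15 and 33), Ctsd (28 and 17) and Ctsb (log2 fold change 0.51, adjusted p = 0.238) were not called, and C1qc, Mrc1 and Cd63 were at 0 in both groups.

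Per well, mature neutrophil genes took a larger share than classical monocyte genes in all 35 high wells and in 7 of 25 low wells. In high wells the neutrophil genes had a median of 5.91% (3.07% to 11.2%) and the monocyte genes of 1.31% (0.395% to 3.31%). The low wells were also split at 1%, after the data were seen. In those under 1%, monocyte genes were above neutrophil genes in 17 of 19, with medians of 3.59% and 0.523%. The 6 wells between 1% and 5% split the other way, since 5 of them had more neutrophil than monocyte transcripts (2.18% to 8.83% against 1.13% to 1.62%), carried Retnlg and held no Ccr2. Those 5 wells held 10 of the 20 Retnlg transcripts of all low wells, 1 to 3 each. As a background, Retnlg was found in 29.6% of Ecad-positive tumour wells (14.1% thinned; median depth 2057 other transcripts). The other one, at 3.79%, had 6.07 Ccr2, 18.7 Ly6c2 and 91.6 Lyz1 transcripts and no Retnlg. Retnlg without Ccr2 was seen in 33 of 35 high wells, and Ccr2 was seen in 15 of 19 wells under 1%, in 6 of them with Retnlg. Without the 6 wells the log2 fold change of Retnlg was 6.50.

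**Figure D3:**
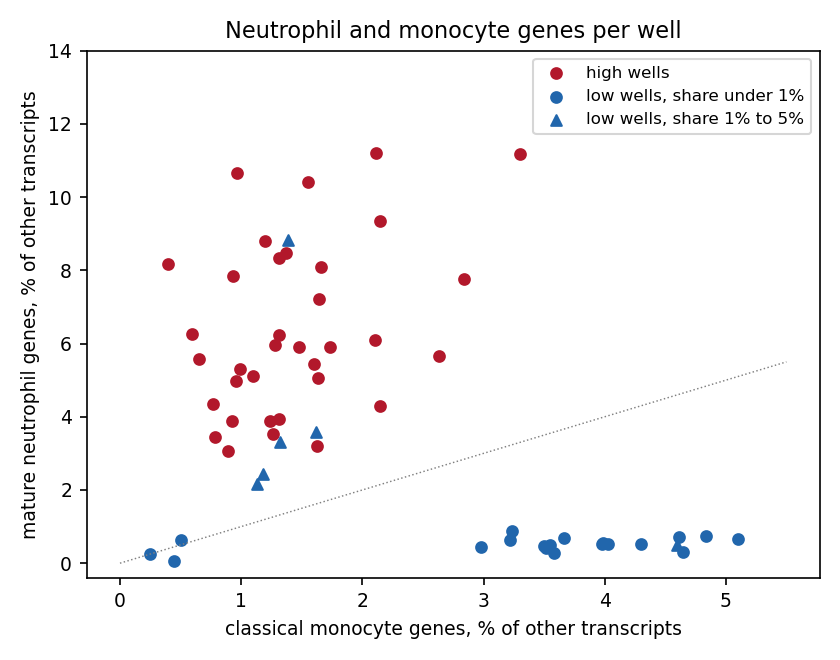
Share of mature neutrophil genes against share of classical monocyte genes (percent of transcripts other than S100a8 and S100a9) in each of the 60 wells, with the line of equal shares dotted. High wells (red) all lie above the line, 5 of the 6 low wells with a share of 1% to 5% (triangles) lie above it too, and most other low wells lie at low right.

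The S100 family did not move as a block. S100a11 (2.61, SE 0.28, adjusted p = 1.03e-05) and S100a6 (2.32, SE 0.29, adjusted p = 3.15e-05) rose in high wells and S100a4 fell. These were 3 of 3 tested genes, where 63.8% of all tested genes were called in either direction, so the count says little about the family. S100a6 had 111, 119, 78.6 and 37.3 per 10000 in high and 32.3, 24.4, 17.8 and 18.6 in low wells, and S100a11 57.7, 66.8, 96 and 52.3 against 17.2, 20.8, 9.5 and 7.73. Neither gene overlapped between groups, which held for 32 of the 160 tested genes in this direction. S100a10, which pairs with annexin A2, had 3 and 43 transcripts, a ratio of 10.1 (3.24 to 51.1) in favour of low wells, and fell in the second fit (adjusted p = 0.000254). S100a13 had 2 and 12 and was not called. Apart from S100a8 and S100a9, then, S100a6 and S100a11 ran with the share and S100a4 and S100a10 against it.

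Genes of other programs were called as follows. Of the 15 genes with the highest fold changes, those outside the lists above were Wfdc17 (3.51, SE 0.32), a small secreted protease inhibitor-like protein, at 75.3, 58.5, 44.3 and 111 per 10000 in high and 10.1, 12.1, 3.55 and 3.09 in low wells, Marcks (2.72, SE 0.46), a substrate of protein kinase C, and the inhibitory receptors Lilrb4 (2.65) and Lilrb3 (2.59). Of 9 tested pan-leukocyte genes 7 rose and 0 fell, against 33.1% and 30.6% of all tested genes. Srgn, Lilrb4 and Rac2 (2.17), the phagocyte GTPase that assembles the oxidase, kept their calls in every alternative that tested them. Tyrobp (1.10), Cd52 (1.10), Fcer1g (1.01) and Alox5ap (0.99) each lost theirs in 4 to 11 alternatives, and in the second fit 3 of 14 pan-leukocyte genes rose, against 6.08% of all genes. Arhgdib (0.46) and Coro1a (0.28) were not called, and the transcription factor gene Sfpi1, which encodes PU.1, had 32 and 20 transcripts (adjusted p = 0.221). The list took 3.29% ± 0.352 of transcripts in high and 1.81% ± 0.595 in low wells.

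Of the chemokine genes, Ccl6 rose in the main fit (1.14, adjusted p = 0.0108, lost with 6 alternatives), and in the second fit Cxcr2 and Ccr1 (26 and 6 transcripts) rose and Ccr2 and Ccl9 fell. Cxcr4, which keeps neutrophils in the marrow, had 12 and 7 and was not called. Of 2 tested interferon-induced genes Ifitm2 rose (2.32, SE 0.40) and Ifitm3 was not called. In the second fit 3 of 9 rose, Ifitm2, Ifitm1 (19 and 4) and Oasl2 (22 and 5), and Ifitm3 fell (−0.96, adjusted p = 0.0388), against 6.08% and 9.87% of all genes. The Ifitm genes are close copies and may share reads. Both tested immediate early genes rose, against 33.1% of all tested genes. They were Dusp1, already counted among the mature neutrophil genes, and Fos (1.69, SE 0.34, lost with 3 alternatives). In the second fit 1 of 13 immediate early genes rose, near the 6.08% of all genes. Junb (36 and 17), Jun (16 and 6), Jund (24 and 13), Zfp36 (27 and 16) and Btg2 (14 and 4) were not called. The glucose transporter gene Slc2a3 had 20 and 0 transcripts, at least 9.43-fold higher, while Pgk1, a glycolytic enzyme (14 and 14), and Pygl, the phosphorylase that breaks down glycogen (26 and 14), were not called and the call of Gapdh (1.24) was lost with 9 alternatives. Among the other oxidase genes, Ncf1 (6 and 5), Ncf4 (10 and 7) and Rac1 (20 and 38) were not called. Of 8 tested actin and thymosin genes 4 rose, Tmsb4x (1.10), Actb (1.09), Arpc1b (1.08) and Pfn1 (1.02), each lost with 4 to 11 alternatives, and their list median of 0.79 became −0.19 in the second edgeR fit. That fit called 0 of 13 (1 had an unadjusted p under 0.05), and 4 of 8 stands near the 33.1% of all tested genes called higher. Hmgb2, a chromatin protein of the proliferation list (1.18), lost its call with 7 alternatives. None of 26 oxidative phosphorylation genes was called in the second edgeR fit (4 of 26 had an unadjusted p under 0.05), with a median of −0.68 against −0.09 for all genes.

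**Figure D4:**
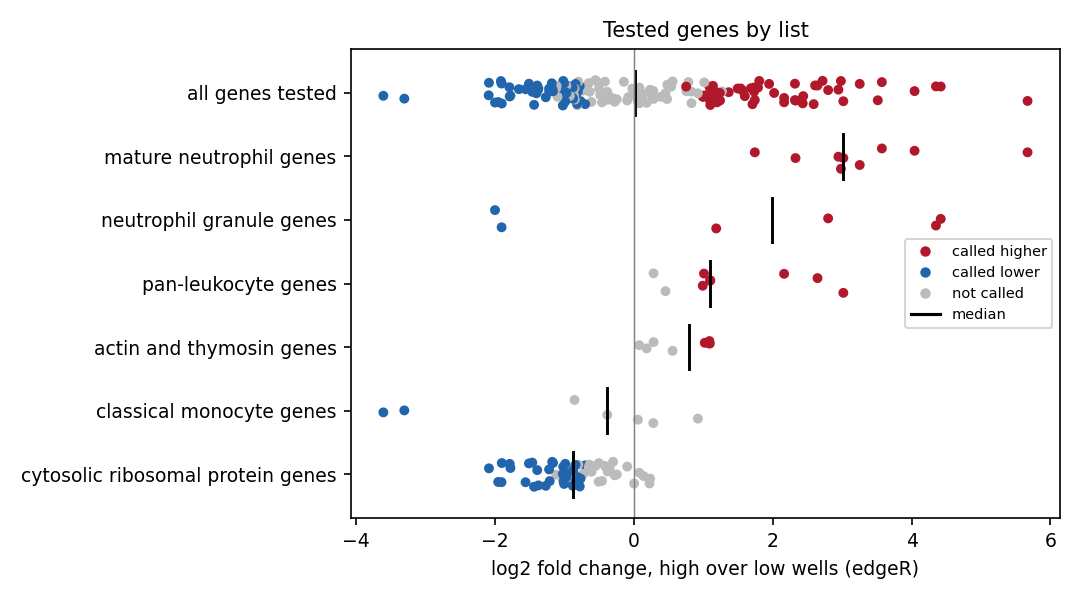
Log2 fold change (high over low wells, edgeR) of the 160 tested genes and of 6 lists. Points are genes, red called higher, blue called lower and grey not called, and black bars are medians. Mature neutrophil genes lie to the right (median 3.02), ribosomal genes to the left (−0.88), and granule genes on both sides.

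Ribosomal protein transcripts were lower in high wells. Of 61 tested genes 35 fell and 0 rose, against 30.6% of all tested genes lower, and the median log2 fold change was −0.88. That background of 160 genes includes these 61, which hold 35 of its 49 lower calls. In the second fit 59 of 75 fell and 0 rose, against 9.87% of all genes lower, which again include them. Their median there was −1.56, against −0.09 for all genes. As a group the ribosomal protein genes took 11%, 8.68%, 11.3% and 7.96% of transcripts in high and 22.7%, 24.3%, 24.4% and 14.1% in low wells, so that the libraries of the groups did not overlap. Rpl13, a subunit of the large ribosomal particle, had 8.46, 5.24, 3.39 and 9.91 per 10000 in high and 38.6, 35.8, 38.5 and 29.5 in low wells (−1.95, SE 0.32, adjusted p = 0.000308). Eef1a1, which brings aminoacyl-tRNA to the ribosome, had 12.7, 9.65, 13.6 and 14.9 against 66.4, 78.6, 59.6 and 67.3 (−2.09, SE 0.27, adjusted p = 3.66e-05). Rpl28 (−1.91), Rps4x (−1.90), Rpl35 (−1.79), Rplp0 (−1.78) and Rps20 (−1.56) were among the genes that fell most, as were the gene models Gm6402 (−1.91), Gm6654 (−1.79) and Gm6251 (−1.66). Reads of ribosomal genes and their pseudogenes may be split, so single values are uncertain. The difference in share was −11.7 percentage points, −10.3 with all wells thinned to 427 transcripts and −9.34 without the 3 low wells, which include the wells at 40.1% and 35.9%. Without those wells 25 of 57 ribosomal genes were lower, against 37 of 134 of all tested genes.

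**Figure D5:**
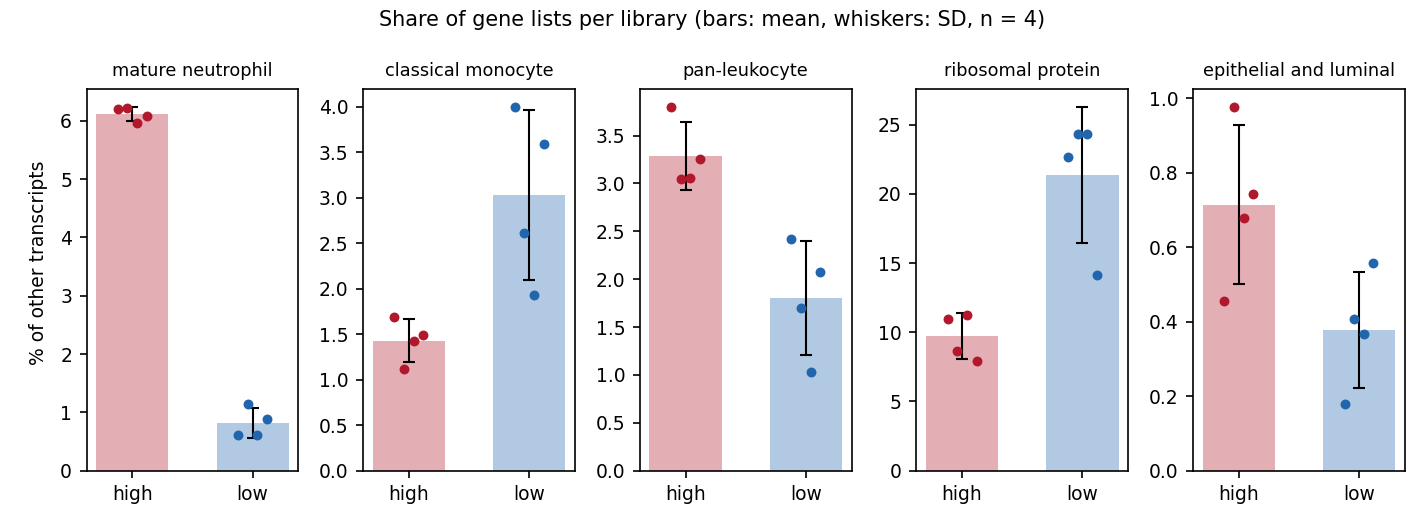
Share of 5 gene lists in transcripts other than S100a8 and S100a9 (percent), in high (red) and low (blue) wells. Points are the 4 libraries, bars their mean and whiskers the SD. Neutrophil genes average 6.12% against 0.814%, monocyte genes 1.43% against 3.03% and ribosomal genes 9.72% against 21.4%.

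Genes that followed the share within libraries, over all wells, are a description, since the points share library and depth. The highest mean Spearman rho over 4 libraries among genes found in at least 20 wells belonged to Retnlg (0.80), 1100001G20Rik (0.76), Mmp9 (0.74), Lcn2 (0.69) and Grina (0.68). Among the lowest were Rpl13 (−0.78), Rpl8 (−0.69), Eef1a1 (−0.68) and Rplp0 (−0.66).

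Epithelial transcripts were present in both groups. Of 3 tested epithelial and luminal genes (21 measured) 2 rose in high wells, against 33.1% of all tested genes: the milk protein gene Csn3 (1.73, SE 0.42, adjusted p = 0.00381) and Wfdc18 (1.60, SE 0.47, adjusted p = 0.0108), with 43 Trf transcripts in each group and no call. Csn3 had 13.9, 38.7, 3.39 and 27.3 per 10000 in high and 3.87, 10.4, 5.92 and 17.2 in low wells, so the groups overlapped, and it was higher in 3 of 4 libraries. In the second edgeR fit 0 of 6 were called (2 had an unadjusted p under 0.05). Both calls were lost with 5 or 6 alternatives, among them the 8% threshold and means of wells. The list took 0.456% to 0.976% of transcripts in high and 0.178% to 0.558% in low libraries, with 13 and 12 of 21 genes present and Muc1, Elf5, Foxa1 and Cldn7 at 0 in both. A single high well of library 2, with a share of 6.24%, held 67 of the epithelial transcripts (2.10% of its own) and 0.792% pan-leukocyte transcripts. Without it, high library 2 went from 0.976% to 0.544% and the mean difference from 0.336 to 0.228 percentage points. Thinned to 427 transcripts the difference fell from 0.336 to 0.120 percentage points. Csn3 was found in 37.1% of high, 28% of low and 91.5% of Ecad-positive tumour wells after thinning (48.6%, 56% and 97.2% before; median depth 636, 1339 and 2057 other transcripts), and Epcam in 5.71%, 8% and 52.1%. Cdh1, which encodes E-cadherin, had 17 and 9 transcripts (ratio 2.67, 1.13 to 6.80, adjusted p = 0.299). Thinning also gives every well the same weight in the sums, so depth and the weight of single wells are not separated by it. Beyond these thinned values, the part of free RNA or of depth was not tested.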

How the data were processed

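Single cells were profiled by CEL-seq, which tags each cell and each molecule with a barcode and counts 3' ends. The deposited values are the authors' expected counts (transcripts estimated for each gene in each well, with no scaling across wells). The submitters' processing notes name BWA 0.6.2-r126 and mm10, while how reads were counted is not given in these sources. Every value is a fixed function of a whole number of observed molecular barcodes, which were also fitted as such. The table held 11753 genes and 73 spike-ins, which were left out. The most observed barcodes for 1 gene and well were 156 for S100a8 and 189 for S100a9, so the deposited estimate stretches these 2 genes in the deepest wells. Each well is meant to hold 1 cell, so no doublet caller was run.

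Wells with at least 500 transcripts were summed per library and group and rounded. S100a8 and S100a9 were left out of totals and tests. The sums were fitted with edgeR 4.0.16 under R 4.3.3 (quasi-likelihood, TMM, filterByExpr, library as a block). Both groups of a library come from the same library, which is where the pairing comes from, and residuals of the same library correlated at 0.19, −0.06, 0.19 and 0.22. In simulated data with the 160 genes of this comparison, 40 of 40 genes changed 2 log2 units, 21 of 40 changed 1 unit and 0 of 80 unchanged genes were called. Those counts were drawn with a common dispersion, no library effect and as many changes up as down. They therefore do not give the rate of false calls in the real libraries. Alternatives used DESeq2 1.42.0, limma 3.58.1 (log2 of well means plus 1), other thresholds and filters, and left-out libraries. Counting intervals are exact at 95% and cover counting error only. A fold against a group at 0 is a bound against 3 transcripts over the group. The older symbols Emr1, Emr4, Chi3l3, Beta-s, Sfpi1 and 1100001G20Rik were matched to the lists. Genes named are the 15 called genes with the largest change in each direction, tested members of the neutrophil, monocyte and pan-leukocyte lists, called members and the 2 largest changes of other lists, untested list members with at least 10 transcripts, and the 5 highest and lowest correlations. Some untested members of the larger lists are covered by counts only. A few genes that the rule names are not reported here. The wells and lists were chosen with earlier results of these data known.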

Additional observations from a re-analysis of the deposited data

Results flagged for a closer look

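Of 168 sets of 4 libraries examined, 11 had 1 library far from the others by Dixon's 95% criterion, and chance flags about 1 in 20. Library 4 stood apart in 3 of them: ribosomal protein genes took 14.1% of its low-well transcripts against 22.7% to 24.4% in the others, other S100 genes took 0.921% of its high-well transcripts against 1.77% to 1.93%, and Actb had 161 per 10000 in its high wells against 134 to 138. In the high wells of library 3, Rpl35 had 17.01 per 10000 against 2.11 to 4.36. In low wells, 1100001G20Rik had 5.46 per 10000 in library 1 against 1.18 to 1.72, and Lilrb3 had 6.91 in library 2 against 1.54 to 2.37. Mesenchymal, endothelial and basal genes took 0.0528% of transcripts in the high wells of library 1 against 0.198% to 0.203%. The other flags were lists present in 1 library alone: B cell genes at 0.0634% in the high wells of library 1, platelet genes at 0.0262% in the high wells of library 2 and 0.00773% in the low wells of library 1, and erythroid genes (4 Car2 transcripts) at 0.0476% in the low wells of library 3.

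Outside the compared wells, 2 of 20 Ecad-positive wells sorted from blood were at or above the 5% threshold, with a highest share of 9.82%, against 0 of 71 and 0 of 69 wells sorted from tumour. These wells came from 1 library and were not compared.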

How the results depend on the processing

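Counts of called genes in edgeR (102, with 53 higher and 49 lower) varied with the setting, and where all 102 called genes were tested again, 77 to 99 of the calls were shared, except for 70 without a filter on low counts. Without the largest well of each library and group, 60 genes were called (31 higher, 29 lower, of 90 tested). Thinned wells gave 17 (9 and 8, of 28 tested), and at least 10 transcripts in all gave 189 (72 and 117). Means of wells in limma called 28 higher, and the lower count was 27 at 1000 transcripts per well (libraries 1 and 2 alone), 74 with scaling by total transcripts alone and 89 without a filter. Leaving out 1 library gave 68 to 124 genes, 38 to 64 higher and 29 to 63 lower, with the fewest lower calls without library 2 (29) and library 1 (30). Without the replicate block, that is without pairing by library, 102 were called (51 higher, 51 lower), 96 of them shared. DESeq2 called 87 (42 and 45). Of 50 named genes called, 29 kept call and direction wherever tested, and of the others Arpc1b (−0.0041) and Pfn1 (−0.062) changed sign, both with means of wells in limma and uncalled there. The cause was not tested.

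The high-minus-low share of mature neutrophil genes was 5.04 at a 3% threshold, 5.69 at 8%, 4.43 with S100a8 and S100a9 in the totals, 5.07 thinned and 5.64 without the wells of 1% to 5% (main 5.30 percentage points). That of pan-leukocyte genes was 0.893 at 1000 transcripts and 1.02 with S100a8 and S100a9 in the totals (main 1.48). That of epithelial and luminal genes was 0.0892 at 8%, 0.123 at each library's median, 0.616 at 1000 transcripts and 0.120 thinned (main 0.336). That of granule genes (main −1.30) changed sign to 1.48 without Lyz1 and Lyz2, which were picked after the data were seen. This describes how much of the list's sum these genes hold and is not a test. Leaving out 1 library gave 5.21 to 5.38, 1.30 to 1.58 and 0.259 to 0.387 for these lists, −1.66 to −0.978 for granule, −1.97 to −1.37 for classical monocyte and −13.5 to −10.3 for ribosomal genes, and −1.08 to −0.78 for the log2 ratio of transcripts per well. Depth limits single genes: 160 of 11753 passed the filter.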
